A study of Mus musculus and Rattus norvegicus with 32 samples.

Results

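The effect of raising METTL5 in hypertrophic cardiomyocytes was read from the RNA of neonatal rat ventricular cardiomyocytes (NRVMs) that received an adenovirus with METTL5 (AdMETTL5) or with GFP (AdGFP) and then phenylephrine (PE). These are 8 of the 32 libraries of the series, 4 in each group, and the table lists 32883 rat genes, of which 15041 passed the filter on low counts and were tested. All genes of this table were taken, with no choice by value. The NRVMs came from Sprague Dawley rats at postnatal day 2 and were pre-plated to remove fibroblasts. Virus was added a day ahead of PE at 20 μM for 24 h, and both groups carried a virus and received PE, so no library shows the cells without either. The transgene is the human METTL5 coding sequence behind an mCMV promoter, which drives expression in any cell that takes up the virus. Nothing in the labels says that the libraries of a group came from separate cultures or litters, so that p-values measure the spread between these samples, which may be technical.

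METTL5 is a methyltransferase that, together with its partner TRMT112, places N6-methyladenosine on 18S ribosomal RNA at the decoding centre of the small subunit. PE activates α1-adrenergic receptors, and in cultured neonatal cardiomyocytes it is a standard way to produce hypertrophy, with larger cells, more sarcomeres, and a return of genes of the fetal ventricle such as Nppa, Nppb and Myh7. Neonatal cardiomyocytes are close to the end of their dividing life and are turning from glycolysis to fatty acid oxidation.

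Rat Mettl5 (ENSRNOG00000008469) had 17.1, 16.8, 18 and 16.2 CPM with AdGFP and 20.5, 23.0, 22.2 and 19.1 CPM with AdMETTL5, where CPM are counts scaled to a common depth by TMM-adjusted library size. Every AdMETTL5 library was above every AdGFP library, by a log2 fold change of 0.32 ± 0.0723, adjusted p = 0.00295 (± standard error, quasi-likelihood test of edgeR, adjusted over all genes tested by the Benjamini-Hochberg method, as for all adjusted p-values here). Reads of the human sequence were counted only where they aligned to the rat gene, so this value does not measure the transgene. Its partner Trmt112 had 44.5 ± 2.26 CPM with AdGFP and 41.6 ± 2.16 CPM with AdMETTL5 (mean ± SD, n = 4), which did not pass the test (log2 fold change -0.10 ± 0.0564, adjusted p = 0.173).

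Total counts ran from 17344430 to 18085339 per library with AdGFP and from 14324700 to 14642431 with AdMETTL5, so every AdMETTL5 library was the shallower. The AdGFP libraries fell into pairs, 1 with 2 and 3 with 4, which differed by a chi-square per degree of freedom of 3.32 and 3.06 within pairs and 8.73 to 11.4 across them, and AdMETTL5 library 4 was the farthest from the others of its group (5.76 to 9.51 against 2.16 to 3.98). The spread within groups was still small, with a square root of the common dispersion of 0.0675 and a median standard error of 0.0807 on the log2 scale. At an adjusted p under 0.05, 4082 genes were higher with AdMETTL5 and 3867 lower, 27.1 and 25.7 percent of the genes tested. Genes that also changed by over 1 on the log2 scale are called dysregulated here, of which 609 were higher (4.05 percent) and 271 lower (1.8 percent). The count of a gene list is to be read against these shares. The groups did not overlap in 7278 of the genes tested (48.4 percent), and in 851 of the 880 dysregulated genes. Separate groups are therefore usual for a gene that was called. The median log2 fold change of all genes was -0.0022, and scaling by library size alone raised it by 0.135, so that small negative values keep their sign only relative to the typical gene. With that scaling 5872 genes were higher and 2343 lower, and 81.2 instead of 69.2 percent of the dysregulated genes were higher. All changes below are relative to TMM scaling, and "higher" and "lower" are used only of genes with an adjusted p under 0.05.

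The labelled cell type was clear in both groups. Its markers summed to 33529 to 42119 CPM with AdGFP and 14338 to 15970 CPM with AdMETTL5, and markers of fibroblasts, which pre-plating reduces but does not remove, summed to 11660.5 to 12286 CPM with AdGFP and 9211 to 10153 CPM with AdMETTL5. All 11 cardiomyocyte markers tested were lower (median log2 fold change -1.14), and so were 9 of 12 fibroblast markers (median -0.37) and 7 of 8 mesothelial markers (median -0.65, sums of 47.9 to 57.3 CPM with AdGFP and 32.1 to 35 CPM with AdMETTL5). The cardiomyocyte markers Myl2, Myh6, Mybpc3, Actn2, Tnni3 and Actc1 are also members of the contractile lists below, so the 2 results are not separate. Endothelial markers summed to 65.4 to 68.4 CPM with AdGFP and 80.6 to 85.5 CPM with AdMETTL5, with 2 of 9 higher and none lower. Macrophage markers summed to 82.9 to 96.3 CPM with AdGFP and 72.8 to 81.9 CPM with AdMETTL5, with 2 of 8 lower (2 higher and 1 lower with scaling by library size alone) and Cd163 at 0 counts in every library. Smooth muscle and mural markers summed to 5746 to 7336 CPM with AdGFP and 5236 to 6065 CPM with AdMETTL5, with 3 higher and 5 lower of 12 (4 higher and 3 lower with scaling by library size alone). The 3 higher calls became 0 without AdGFP library 3 or 4 or AdMETTL5 library 1 or 2, and 1 without AdMETTL5 library 3. In RNA of a whole culture, fewer cells of a type and less RNA per cell cannot be told apart. The part of cell makeup in the results on contractile, cell cycle, metabolic and matrix genes was not tested. Which cells of the culture carried the changes of cell cycle genes was not tested either.

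**Figure D1:**
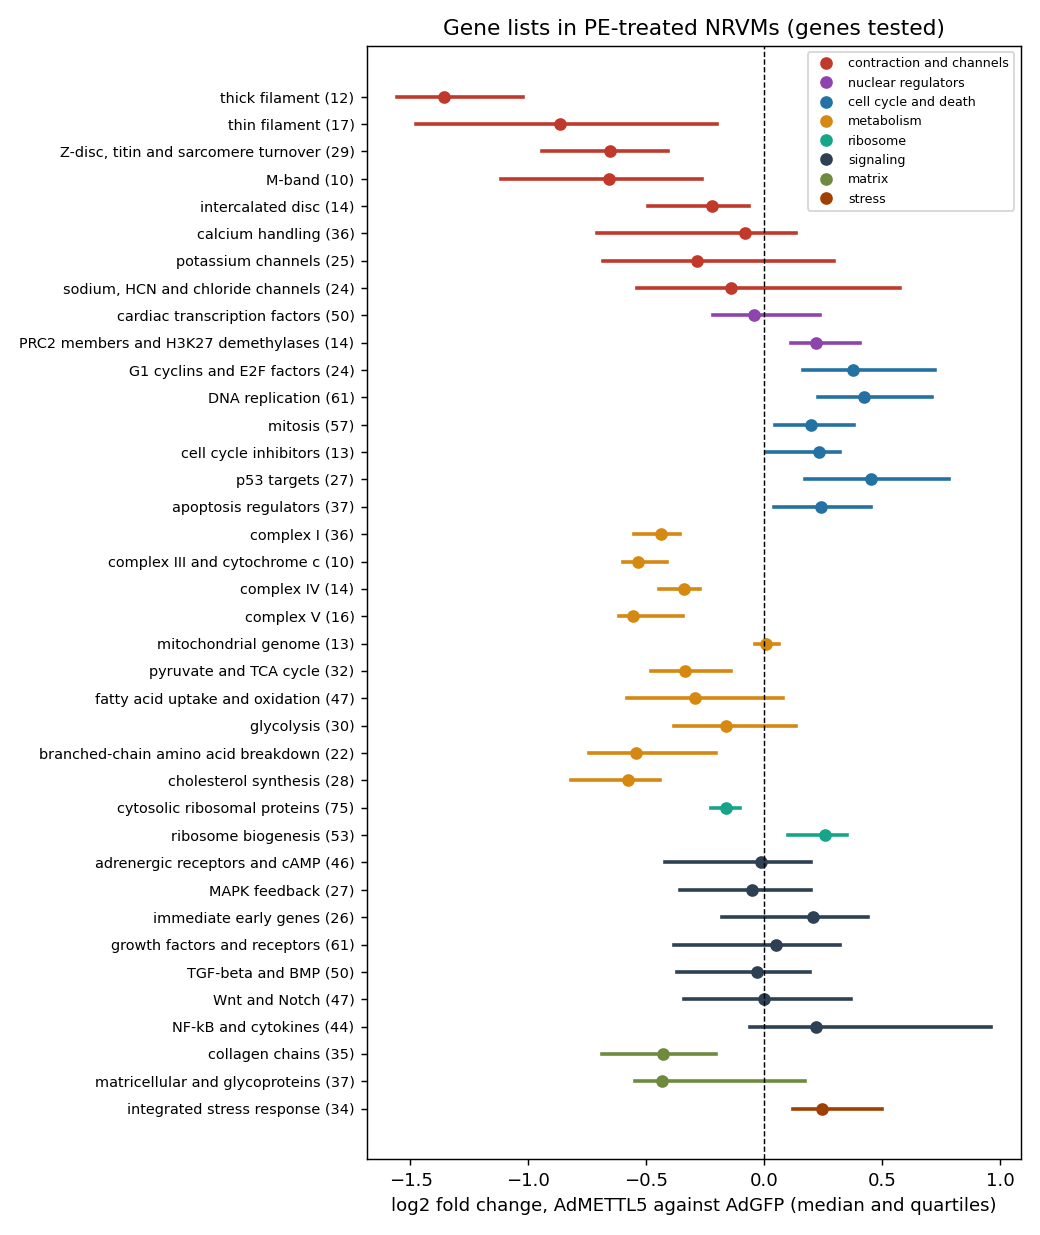
Log2 fold change of AdMETTL5 against AdGFP (horizontal axis) for 38 gene lists (rows, coloured by program). The point is the median of the tested members, the bar runs from the lower to the upper quartile, and the dashed line is the median of all genes. The thick filament median sits at -1.36 and the DNA replication median at 0.42. The interferon list, with a median of 2.66, is left out to keep the scale readable.

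The contractile program was lower with AdMETTL5 in every layer of the sarcomere. Of the thick filament, which holds the myosin motors and their regulators, 10 of 12 genes were lower, none higher, and all 10 were dysregulated, with a median log2 fold change of -1.36. Their summed level was 21139 to 24476 CPM with AdGFP and 6550.2 to 7293 CPM with AdMETTL5. Mybpc3, cardiac myosin-binding protein C, which sets cross-bridge cycling, had 1479.8, 1471, 1404 and 1495 CPM with AdGFP and 490.05, 515, 484 and 609 CPM with AdMETTL5, without overlap of the groups. It fell 2.79-fold (log2 fold change -1.48 ± 0.0708, adjusted p = 2.39e-08). Mylk3, the cardiac myosin light chain kinase, fell 2.1-fold (log2 fold change -1.07 ± 0.0660, adjusted p = 1.34e-07), as did its ventricular substrate Myl2 (-2.34) and the atrial light chain Myl7 (-1.31).

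In the thin filament, 12 of 17 genes were lower and 1 higher. Tnnc1, the calcium-binding troponin C of slow and cardiac muscle, had 1892, 1975, 1443 and 1500.2 CPM with AdGFP and 648, 639, 565 and 579.9 CPM with AdMETTL5. These groups lie far apart, and the log2 fold change was -1.49 ± 0.0997, adjusted p = 2.49e-07. Cardiac actin Actc1, the main actin of the sarcomere, had 20954, 21339, 15408 and 15835 CPM with AdGFP and 6645, 7075, 6245 and 6297 CPM with AdMETTL5, a 2.80-fold fall (log2 fold change -1.49 ± 0.109, adjusted p = 4.95e-07). Tmod1, which caps the pointed ends of actin filaments, changed by -1.32 ± 0.0502, adjusted p = 7.51e-09. The largest falls of this list were in the fast skeletal troponins: Tnni2 had 2.55, 2.11, 1.93 and 2.38 CPM with AdGFP and 0, 0.336, 0 and 0 CPM with AdMETTL5 (log2 fold change -4.64 ± 0.544, adjusted p = 2.2e-05), and Tnnt3 changed by -2.82, both at low levels. The member that rose was Lmod3 (0.95), a leiomodin that nucleates actin in muscle, whereas its paralog Lmod2 fell (-0.86). Cardiac troponin T, Tnnt2 (-0.90), and Tpm1 (-0.87) fell by less than troponin C, and Nebl (-0.20) did not pass the test.

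The Z-disc list, which anchors actin and senses stretch, had 24 of 29 members lower and 3 higher. Actn2, the sarcomeric α-actinin, had 2666, 2700.2, 2462 and 2717 CPM with AdGFP and 1094, 1188, 1084 and 1227 CPM with AdMETTL5 and fell 2.30-fold (log2 fold change -1.20 ± 0.0583, adjusted p = 2.61e-08). Csrp3, the muscle LIM protein, had 1432, 1380.4, 1113 and 1158 CPM with AdGFP and 374, 391, 351 and 378 CPM with AdMETTL5, with a log2 fold change of -1.77 ± 0.0813, adjusted p = 1.75e-08. For both, the lowest AdGFP library was above the highest AdMETTL5 library. Ldb3, which ties α-actinin to signaling proteins, Cavin4, a muscle caveola protein, and Synpo2l were also dysregulated, with log2 fold changes of -1.5 for Ldb3, -1.84 for Cavin4 and -1.18 for Synpo2l. Smaller falls were seen for the intermediate filament desmin and its chaperone, -0.83 for Des and -0.99 for Cryab, for the calcineurin-binding Myoz2 (-0.89), and for the filamin Flnc (-0.56). The 3 members that rose take sarcomere proteins apart or refold them: the ubiquitin ligases Fbxo32 (0.68) and Trim63 (0.32) and the co-chaperone Bag3 (0.23). Fbxo32 had 20.2, 25.2, 32.3 and 34.9 CPM with AdGFP and 42.7, 44.2, 49.2 and 43.8 CPM with AdMETTL5, an increase seen in every AdMETTL5 library.

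At the M-band, where thick filaments are cross-linked, 9 of 10 genes were lower and none higher. Myom2, the myomesin of mature fast and ventricular muscle, had 557, 603, 658 and 679 CPM with AdGFP and 117, 123, 122 and 187 CPM with AdMETTL5, a 4.54-fold fall (log2 fold change -2.18 ± 0.134, adjusted p = 1.27e-07), while its paralog Myom1 fell 2.52-fold. The kinase-like giant Speg (-0.90) and the ligase Trim55 (-1.19), a relative of the Trim63 that rose, were lower as well. Intercalated disc genes, which join cardiomyocytes end to end, moved less: 8 of 14 were lower, 2 higher and none dysregulated. The adhesion genes Ctnna1 and Dsg2 fell (-0.88 for Ctnna1 and -0.66 for Dsg2), and Gjc1, connexin 45 of early and conducting myocardium, rose (0.62). Cdh2 (-0.054) and Dsp (0.10), the cadherin and the plaque protein of the disc, did not pass the test.

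**Figure D2:**
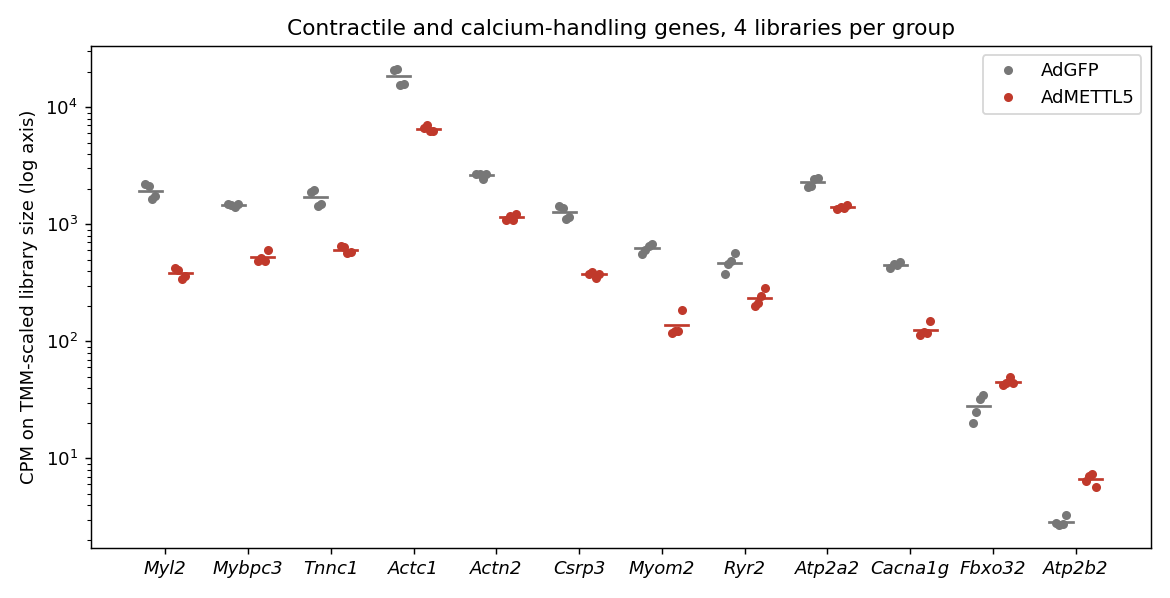
Level of 12 contractile and calcium-handling genes in each library (CPM on TMM-scaled library size, log axis). Each point is a library, grey for AdGFP and red for AdMETTL5, and the short line is the group mean of 4 libraries. The groups separate for all 12 genes, with Fbxo32 and Atp2b2 higher with AdMETTL5 and the others lower. Such separation was seen in 48.4 percent of all genes tested.

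Pairs of isoforms were also compared by the ratio of their counts within a library, which does not depend on the scaling between libraries. The counts of the 9 ratios computed are not corrected for gene length, and each change was tested by an exact two-sided permutation test over the 70 ways to label the libraries, whose smallest p is 0.0286 (0.0367 after adjustment over the 9 ratios). The ratio of Myh7 to Myh6, the slow fetal and fast adult ventricular myosin of the rat, was 2.20 to 2.56 with AdGFP and 1.48 to 1.86 with AdMETTL5. The ratio of slow skeletal to cardiac troponin I, Tnni1 to Tnni3, which falls as the heart matures, was 0.984 to 1.10 with AdGFP and 0.771 to 0.853 with AdMETTL5. Both were lower with AdMETTL5 in all 4 libraries, at the smallest p, so the fetal member fell further than its partner. In the opposite direction, skeletal to cardiac actin, Acta1 to Actc1, was 0.0582 to 0.0749 with AdGFP and 0.0993 to 0.113 with AdMETTL5, and the atrial to the ventricular regulatory light chain, Myl7 to Myl2, was 0.0135 to 0.0222 with AdGFP and 0.0314 to 0.0422 with AdMETTL5. Here the fetal or atrial member lost less, also at the smallest p. For the essential light chains Myl4 and Myl3 the ratio was 0.0556 to 0.0709 with AdGFP and 0.0583 to 0.0752 with AdMETTL5, with overlapping groups (exact p = 1.00). The isoforms of fetal heart therefore fell by unequal amounts, some further and some less far than their adult partners.

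Calcium handling genes moved in both directions, with 16 of 36 members lower and 9 higher (12 higher and 13 lower with scaling by library size alone). Ryr2, the release channel, had 375, 460.01, 488 and 564 CPM with AdGFP and 199.6, 214, 243 and 284 CPM with AdMETTL5 and fell 2.01-fold (log2 fold change -1.0 ± 0.124, adjusted p = 3.25e-05). Atp2a2, the SERCA2 pump, had 2064, 2129, 2428 and 2506 CPM with AdGFP and 1352, 1403, 1389.7 and 1449.5 CPM with AdMETTL5 and fell 1.63-fold (-0.71 ± 0.0666, adjusted p = 3.86e-06). Neither gene had a library of one group within the range of the other. The pump's inhibitors Pln and Sln fell too (-0.96 for Pln and -0.65 for Sln), as did the store protein Casq2 (-0.88), the junctional Jph2 (-0.71) and the exchanger Slc8a1 (-0.75). S100a1, a calcium sensor that raises release and uptake, fell 2.92-fold (-1.55 ± 0.117, adjusted p = 6.3e-07).

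Among the channels that let calcium in, the T-type gene Cacna1g had 421, 454, 448 and 475 CPM with AdGFP and 114, 121, 118 and 148 CPM with AdMETTL5, a 3.59-fold fall (-1.85 ± 0.0777, adjusted p = 1.23e-08). T-type channels are a feature of fetal and hypertrophic ventricle, and the other T-type gene Cacna1h fell as well (-0.44). The L-type pore Cacna1c, the main calcium entry of the beat, did not pass the test (0.0063, adjusted p = 0.96). Rises were seen for Atp2b2, a plasma membrane calcium pump (1.20 ± 0.123, adjusted p = 7.88e-06), for Camk2d, the main cardiac calmodulin kinase (0.45), for triadin, Trdn (0.47), and for Jph1, the skeletal junctophilin (0.55).

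Ion channels changed member by member. The potassium channel Kcnq1, which carries the slow repolarizing current, had 63.0, 63.2, 63.1 and 72.4 CPM with AdGFP and 22.6, 22.1, 15.9 and 20.7 CPM with AdMETTL5 (-1.69 ± 0.0946, adjusted p = 6.36e-08), and its partner subunit Kcne1 (-0.77) and Kcnip2, the subunit of the transient outward channel (-1.09 ± 0.374, adjusted p = 0.027), also fell. The call of Kcnip2 was lost without AdGFP library 3 or 4 or AdMETTL5 library 1, 2 or 3 (adjusted p from 0.0640 to 0.0930). For Kcnq1 the groups did not overlap. Against this, Kcnj3, which with Kcnj5 forms the acetylcholine-gated channel, rose (1.5 ± 0.122, adjusted p = 1.11e-06) while Kcnj5 fell (-0.91). The inward rectifier Kcnj12 (1.08), the transient outward Kcna4 (1.01), the leak channel Kcnk1 (1.51) and the pacemaker channels Hcn2 (1.18) and Hcn4 (0.68) rose. Over the lists, 10 of 25 potassium channel genes were lower and 7 higher (9 higher and 7 lower with scaling by library size alone), and 8 of 24 sodium, pacemaker and other transport genes were lower and 10 higher.

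Of the natriuretic and stress markers of hypertrophy, 8 of 14 were lower, 1 higher and 5 not called. Beyond Nppa (-2.14), Nppb (-2.13), Myh7 (-2.11) and the stretch-responsive Ankrd1 (-2.30), the stress genes Xirp2 (-0.65) and Fhl1 (-0.86) fell, and the member that rose was the stress cytokine Gdf15 (0.71). Rcan1, the feedback target of calcineurin and NFAT that is often used to read that pathway, had 423, 425, 345 and 339 CPM with AdGFP and 384, 405, 406 and 297 CPM with AdMETTL5. Its groups overlapped, and it did not pass the test (-0.037 ± 0.104, adjusted p = 0.788). Npr1 (-0.0048) and Npr3 (-0.15), receptors of the natriuretic peptides, did not pass either.

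Of 50 cardiac transcription factors 14 were lower and 14 higher, close to the share of all genes (20 higher and 11 lower with scaling by library size alone). Irx4, which marks ventricular identity, had 49.2, 42.4, 62.2 and 60.7 CPM with AdGFP and 15.2, 15.2, 13.8 and 15.9 CPM with AdMETTL5 and fell 3.56-fold (-1.83 ± 0.117, adjusted p = 1.72e-07). Tbx20 had 159.9, 179.8, 181 and 197 CPM with AdGFP and 83.7, 75.6, 82.5 and 77.1 CPM with AdMETTL5 and fell 2.25-fold (-1.17 ± 0.0635, adjusted p = 5.61e-08). Both were lower in every AdMETTL5 library. Gata4 (-1.0), Nkx2-5 (-0.58), Srf (-0.46) and Klf15 (-0.70) fell by less, while Hand2 (0.70), Klf5 (0.88) and Hdac9 (1.16), a class IIa deacetylase that restrains MEF2, rose. Tbx5 (0.0018), Gata6 (-0.14) and Myocd (-0.071), further core factors of the heart, did not pass the test. The MEF2 family moved in both directions: Mef2a (-0.40) and Mef2d (-0.21) were lower, Mef2c (0.60) was higher, and Mef2b, at 0.309 ± 0.391 CPM with AdGFP and 1.12 ± 0.400 CPM with AdMETTL5, was higher by 1.83. The call of Mef2b was lost without AdGFP library 1, 2 or 3 or AdMETTL5 library 2, 3 or 4 (adjusted p from 0.0541 to 0.113), and that of Mef2d with scaling by library size alone (adjusted p = 0.325).

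Polycomb repressive complex 2 (PRC2), which methylates histone H3 at lysine 27, was addressed by the study through its subunit SUZ12. Of its 14 members and opposing demethylases, 9 were higher and 2 lower, none dysregulated. Suz12 had 27.2, 27.4, 25.4 and 24.6 CPM with AdGFP and 33.9, 29.3, 33.4 and 34.5 CPM with AdMETTL5, a small rise without overlap (0.32 ± 0.0657, adjusted p = 0.00129). The paper reported no significant change of Suz12 RNA in this comparison or by qRT-PCR, and a higher SUZ12 protein level with AdMETTL5. Its calls of dysregulated genes needed a log2 fold change over 1, which this rise does not reach. Ezh2, the methyltransferase of dividing cells, had 20.6, 22.9, 21.1 and 20.8 CPM with AdGFP and 39.5, 40.7, 38.1 and 38.8 CPM with AdMETTL5 (0.88 ± 0.0545, adjusted p = 1.42e-07), and Eed rose as well (0.50). Ezh1, its counterpart in resting cells, fell (-0.23 ± 0.0723, adjusted p = 0.017), a call lost without AdGFP library 4 or AdMETTL5 library 3 (adjusted p = 0.0523 and 0.0543) and with scaling by library size alone (adjusted p = 0.366). The ratio of Ezh2 to Ezh1 was 0.639 to 0.782 with AdGFP and 1.37 to 1.64 with AdMETTL5 (exact permutation p = 0.0286, adjusted p = 0.0367) and does not depend on scaling. Of the homeobox cluster genes, which PRC2 silences, only 2 of 37 in the table passed the filter and neither passed the test. The other members held few counts, DESeq2, run without that filter, called 3 members higher, and the summed level of the list was 1.14 to 2.22 CPM with AdGFP and 3.18 to 4.12 CPM with AdMETTL5.

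Cell cycle genes rose with AdMETTL5, those of entry into S phase in the greater share. Of the G1 cyclins, kinases and E2F factors that commit a cell to S phase, 19 of 24 were higher and 2 lower. Ccne1, a cyclin E, had 20.2, 14.4, 16.3 and 17.9 CPM with AdGFP and 38.7, 39.2, 39.7 and 40.1 CPM with AdMETTL5 and rose 2.29-fold (1.20 ± 0.0840, adjusted p = 3.62e-07). Its kinase partner Cdk2 had 45.5, 44.5, 47.8 and 42.8 CPM with AdGFP and 109, 111, 102 and 98.3 CPM with AdMETTL5 and rose 2.33-fold (1.22 ± 0.0546, adjusted p = 1.54e-08). The groups were separate for both genes, as they were for the other cyclin E, Ccne2 (1.73). The repressor E2Fs that E2F activity itself induces rose, E2f8 by 1.12 and E2f7 by 0.70, with Myc (0.80) and Cdc25a (0.50). Cyclin D genes, which act before cyclin E, moved less and not together, with 0.16 for Ccnd1, -0.44 for Ccnd2 and 0.18 for Ccnd3.

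DNA replication genes rose broadly: 47 of 61 were higher and 2 lower, with a median log2 fold change of 0.42. Mcm6 and Mcm3, subunits of the replicative helicase, had 59.6, 55.1, 62.6 and 59.7 CPM with AdGFP and 131, 132, 133 and 129 CPM with AdMETTL5 for Mcm6 and 53.9, 49.7, 54.2 and 51.0 CPM with AdGFP and 121, 125, 118 and 110.2 CPM with AdMETTL5 for Mcm3. They rose 2.22-fold and 2.27-fold, and the other core subunits rose by less, 0.56 for Mcm2, 0.91 for Mcm4, 0.71 for Mcm5 and 0.31 for Mcm7. Fen1, the flap nuclease that finishes Okazaki fragments, rose 2.81-fold (1.49 ± 0.0706, adjusted p = 2.27e-08) and had 32.1, 29.1, 28.5 and 27.3 CPM with AdGFP and 85.1, 87.0, 84.5 and 72.3 CPM with AdMETTL5. The origin factors Orc1 (1.0), Cdc6 (0.71) and Cdt1 (0.69), nucleotide supply through Rrm1 (0.74), Tyms (0.80) and Tk1 (0.75), and the chromatin partners Chaf1b (0.90) and Slbp (0.99) rose with them. Pcna (0.42) and Rrm2 (0.31) rose modestly, while Cdc45 (0.12) and Pold1 (0.21), equally part of the replication machinery, did not pass the test.

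In the list of later steps of the cycle a smaller share was called. Of the mitosis genes, 30 of 57 were higher, 5 lower and 22 not called, at a median of 0.20 (41 higher and 0 lower with scaling by library size alone). Mybl2, a factor of late G1 and S phase counted in this list, stood apart with 32.4, 30.3, 32.5 and 31.8 CPM with AdGFP and 101, 107, 92.2 and 89.0 CPM with AdMETTL5 (1.61 ± 0.0631, adjusted p = 9.55e-09). Mki67, present in all cycling phases, had 79.6, 89.1, 94.7 and 96.8 CPM with AdGFP and 144, 160.01, 159 and 159 CPM with AdMETTL5 (0.79 ± 0.0633, adjusted p = 1.04e-06), and Ccna2, the cyclin of S and G2 phase, rose by 0.49. Some members with roles in entry into and exit from mitosis were lower or not called. Cdk1 had 46.6, 40.7, 46.2 and 43.9 CPM with AdGFP and 36.6, 38.1, 35.4 and 36.4 CPM with AdMETTL5 and was lower (-0.28 ± 0.0558, adjusted p = 0.00129), Cdc20 was lower (-0.22), both calls being lost with scaling by library size alone (adjusted p = 0.0818 and 0.208), and Ccnb1 (-0.0047), Plk1 (-0.054) and Ttk (0.041) did not pass the test. Aurkb, needed for division of the cell body, rose by 0.24, and Anln by 0.39. In DNA repair, 17 of 37 genes were higher, 2 lower and 18 not called, with 0.68 for Brca1 and 0.69 for Brca2. Fignl1, an AAA protein of recombination repair, was the dysregulated member, falling 2.96-fold.

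**Figure D3:**
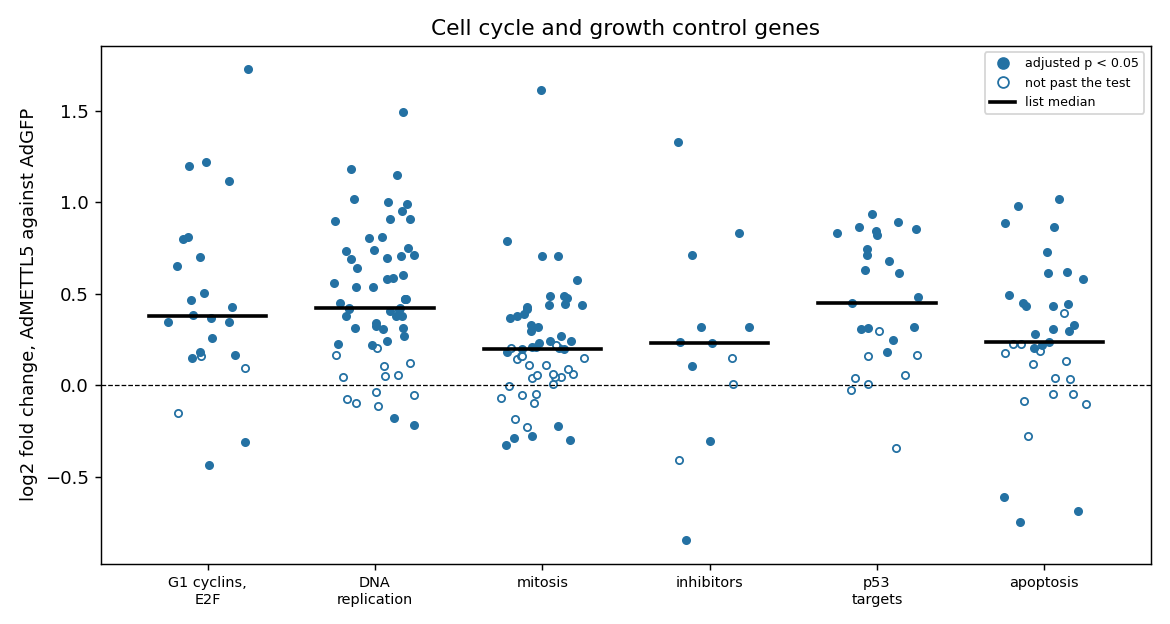
Log2 fold change of AdMETTL5 against AdGFP (vertical axis) for every tested member of 6 lists of cell cycle and growth control. Each point is a gene, filled where the adjusted p is under 0.05, and the bar is the list median. Of the 61 replication genes 47 were higher, whereas the 57 mitosis genes are centred lower, at 0.20.

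Inhibitors of the cycle were higher at the same time. Cdkn1c, the p57 inhibitor, had 19.6, 21.8, 32.9 and 31.7 CPM with AdGFP and 67.5, 63.2, 63.9 and 72.6 CPM with AdMETTL5 and rose 2.52-fold (1.33 ± 0.137, adjusted p = 7.77e-06). Cdkn1a, the p21 inhibitor, had 326, 323, 295 and 293 CPM with AdGFP and 563, 596, 554 and 493 CPM with AdMETTL5 and rose 1.78-fold (0.83 ± 0.0631, adjusted p = 6.37e-07). Wee1, the kinase that holds CDK1 inactive, rose by 0.71, whereas Cdkn1b (0.15) and Cdkn2a (0.0089) did not pass the test and Gadd45g fell (-0.85). Cdkn1a is also a target of p53, and of 27 such targets 19 were higher and none lower, with a median of 0.45 and none dysregulated. They include the p53 ligase Mdm2 (0.84 ± 0.0550, adjusted p = 1.93e-07), the cyclin G gene Ccng1 (0.63), the death receptor genes Eda2r (0.85) and Fas (0.61), and Bax (0.45). Mdm2 had 69.2, 73.3, 67.0 and 67.2 CPM with AdGFP and 126, 124, 132 and 113 CPM with AdMETTL5, apart in all libraries. Some of these targets, such as Sesn2 (0.75) and Gdf15 (0.71), are also induced by amino acid and endoplasmic reticulum stress.

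Among genes of cell death, 20 of 37 apoptosis regulators were higher and 3 lower. The initiator caspase Casp8 rose (0.58), and so did the BH3 gene Pmaip1 (0.87). Mlkl and Ripk3, the executor and kinase of necroptosis, rose by 1.02 and 0.89. The survival gene Bcl2 had 10.4, 11.7, 10.6 and 11.3 CPM with AdGFP and 6.41, 7.45, 6.30 and 7.25 CPM with AdMETTL5 and fell (-0.69 ± 0.0875, adjusted p = 4.18e-05), while Bcl2l1 did not pass the test (-0.084). RNA levels of these genes do not measure cell death, which was not assayed in these libraries.

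Oxidative phosphorylation was lower through its nuclear genes and not through the mitochondrial genome. The lists of complexes I, II, III, IV and V held 34 of 36, 4 of 4, 10 of 10, 11 of 14 and 15 of 16 lower genes and no higher gene. Their medians ran from -0.34 in complex IV to -0.56 in complex V, so falls were broad and all but that of Cox6a2 smaller than 2-fold. Atp5f1b, the catalytic subunit of ATP synthase, had 2957, 2955, 2617 and 2718 CPM with AdGFP and 1748, 1799.9, 1724 and 1848 CPM with AdMETTL5 (-0.66 ± 0.0558, adjusted p = 1.57e-06). The muscle form of a complex IV subunit, Cox6a2, had 1465, 1312, 1149 and 1203 CPM with AdGFP and 640.4, 644, 545 and 485 CPM with AdMETTL5 and was the dysregulated member (-1.15 ± 0.0983, adjusted p = 1.72e-06), while its ubiquitous form Cox6a1 did not pass the test (-0.10).

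All 13 protein genes of mitochondrial DNA were tested and none passed, with log2 fold changes from -0.14 to 0.082. Mt-co1, the catalytic subunit of complex IV, had 52274, 56932, 45590.1 and 46668 CPM with AdGFP and 51979.8, 53351, 48900.5 and 42063 CPM with AdMETTL5, with wide overlap of the groups (log2 fold change -0.038 ± 0.0942, adjusted p = 0.763). Together these genes held 98391 to 122804 CPM with AdGFP and 93053 to 121358 CPM with AdMETTL5. The factors that copy and transcribe mitochondrial DNA, Tfam (0.10), Tfb2m (0.0082) and Polrmt (0.22), did not pass the test either.

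Fuel oxidation fell with the respiratory chain. In the pyruvate and TCA list 23 of 32 genes were lower and 2 higher, among them the pyruvate dehydrogenase subunits Dlat (-0.93) and Pdha1 (-0.57), fumarase Fh (-0.78) and Mdh2 (-0.54). In fatty acid oxidation 29 of 47 were lower and 7 higher. Fabp3, the fatty acid carrier of the cardiomyocyte, had 547, 523, 469.8 and 465 CPM with AdGFP and 291, 293, 256 and 254 CPM with AdMETTL5 (-0.87 ± 0.0693, adjusted p = 9.35e-07). Etfb, which passes electrons from acyl-CoA dehydrogenases to the chain, was dysregulated (-1.04 ± 0.0677, adjusted p = 1.93e-07), and the medium- and long-chain dehydrogenases Acadm and Acadl fell (-0.61 for Acadm and -0.60 for Acadl). The carnitine step split, since Cpt2 fell (-0.66) and Cpt1a and Cpt1b rose (0.32 for Cpt1a and 0.21 for Cpt1b), with the ratio of the last pair at 0.606 to 0.689 with AdGFP and 0.669 to 0.739 with AdMETTL5 (exact permutation p = 0.114). Breakdown of branched-chain amino acids had 17 of 22 genes lower at a median of -0.54, led by Hibch and Acadsb (-0.95 for Hibch and -0.95 for Acadsb). Bcat2, the mitochondrial transaminase, fell (-0.78) and its cytosolic counterpart Bcat1 rose (0.62).

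**Figure D4:**
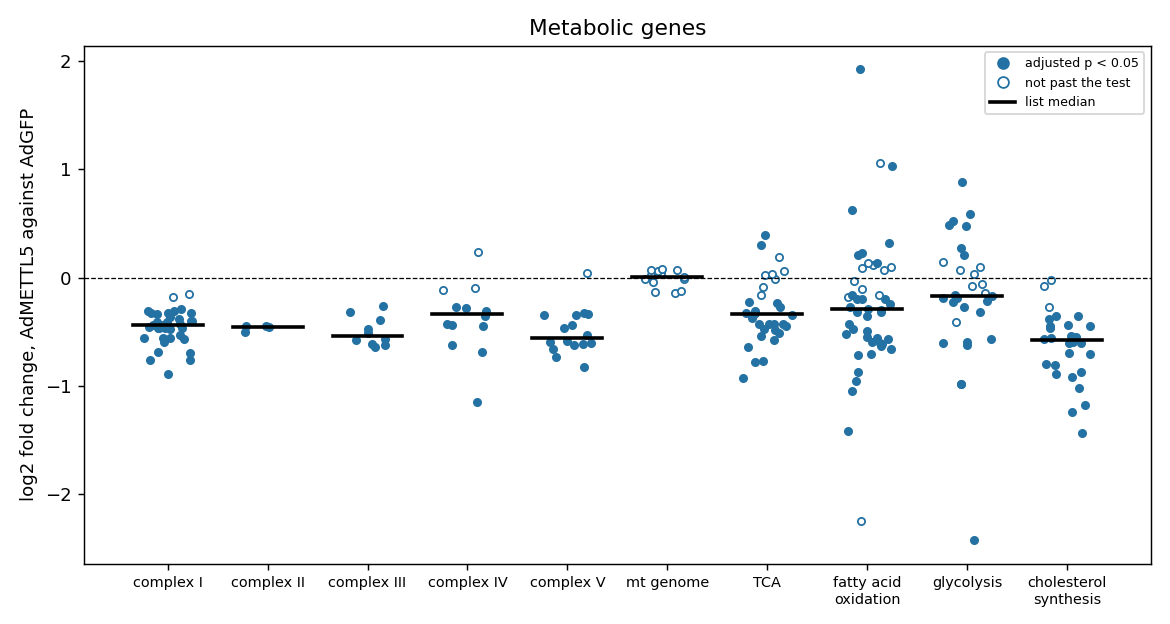
Log2 fold change of AdMETTL5 against AdGFP (vertical axis) for every tested member of 10 metabolic lists. Each point is a gene, filled where the adjusted p is under 0.05, and the bar is the list median. The medians of the nuclear-encoded complexes, the TCA cycle and cholesterol synthesis lie below 0, and the 13 genes of the mitochondrial genome lie between -0.14 and 0.082 with no member past the test.

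Glycolysis leaned the same way with less unity, 15 of 30 genes lower and 7 higher (9 higher and 8 lower with scaling by library size alone), and without AdGFP library 3 the higher genes numbered 4. Falls were seen for phosphoglycerate mutase Pgam2 (-0.98), glycogen phosphorylase Pygm (-0.98) and phosphofructokinase Pfkm (-0.61), and Aldoc was dysregulated (-2.42 ± 0.182, adjusted p = 6.26e-07). Hk2 (0.49) and the insulin-responsive glucose transporter Slc2a4 rose. Slc2a4 had 46.5, 42.1, 36.0 and 39.8 CPM with AdGFP and 80.6, 82.2, 76.2 and 64.6 CPM with AdMETTL5 (0.89 ± 0.0882, adjusted p = 5.97e-06), so the ratio of Slc2a1, the transporter of fetal heart, to Slc2a4 was 3.19 to 3.66 with AdGFP and 1.60 to 1.75 with AdMETTL5 (exact permutation p = 0.0286, adjusted p = 0.0367). Of the creatine and energy buffer list 11 of 19 were lower and 5 higher. Myoglobin, Mb, had 116, 117, 122 and 134 CPM with AdGFP and 34.4, 36.6, 28.5 and 46.2 CPM with AdMETTL5 and fell 3.35-fold (-1.74 ± 0.112, adjusted p = 1.76e-07). The creatine kinases fell in the cytosol, -0.63 for Ckm and -0.51 for Ckb, and the ubiquitous mitochondrial form with them (-2.41 for Ckmt1), whereas Ampd1, the AMP deaminase of muscle, rose (1.77 ± 0.353, adjusted p = 0.00119). Among regulators, Ppara (-0.56) and Prkaa2 (-0.41) fell, Pparg rose (1.25 ± 0.191, adjusted p = 0.00017), and the coactivator Ppargc1a did not pass the test (0.068).

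Cholesterol synthesis was lower as a whole pathway. Of 28 genes 25 were lower and none higher, and the median log2 fold change was -0.58. Fdps and Fdft1, which make farnesyl diphosphate and squalene, fell 2.69-fold and 2.02-fold. Fdps had 754, 716, 598 and 606 CPM with AdGFP and 255, 265, 242 and 230.2 CPM with AdMETTL5, with no overlap (-1.43 ± 0.0795, adjusted p = 6.18e-08). Srebf2, the transcription factor of the pathway, fell by less (-0.54). Hsd17b7 (-1.24), Idi1 (-0.89) and Hmgcs1 (-0.87) were between these values.

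The ribosome, on which METTL5 acts, showed small shifts, downward in its proteins, where the count depended on the scaling, and upward in the factors that build it. Of 75 cytosolic ribosomal protein genes 42 were lower and 1 higher, at a median of -0.16 (7 higher and 11 lower with scaling by library size alone). The summed level ran over 22577 to 25081 CPM with AdGFP and 20178 to 22409 CPM with AdMETTL5, so the highest AdMETTL5 library reached just short of the lowest AdGFP library. Of 53 biogenesis genes 36 were higher and 3 lower, at a median of 0.26. They include nucleolin Ncl (0.32), the 2′-O-methyltransferase Fbl (0.44) and Nolc1 (0.51), while nucleophosmin Npm1 (0.027) and the polymerase I factor Ubtf (0.10) did not pass the test. None of either list was dysregulated, and the share of higher biogenesis genes rested on log2 changes mostly under 0.5.

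The other writers of ribosomal RNA marks went both ways. Bud23, which methylates a guanosine of 18S RNA and like METTL5 needs TRMT112, had 18.4, 18.8, 17.6 and 18 CPM with AdGFP and 26.4, 22.8, 22.8 and 23.3 CPM with AdMETTL5 (0.39 ± 0.0647, adjusted p = 0.00033). Zcchc4, the N6-methyladenosine writer of 28S RNA, had 7.41, 7.10, 7.06 and 7.50 CPM with AdGFP and 5.80, 5.10, 5.51 and 5.85 CPM with AdMETTL5 and was lower (-0.38 ± 0.0879, adjusted p = 0.00292), as was Nsun5 (-0.42). In the machinery of the same mark on messenger RNA, the writer Mettl3 and the eraser Fto were lower (-0.38 for Mettl3 and -0.30 for Fto), and the adaptor Rbm15 was dysregulated upward (1.01 ± 0.0843, adjusted p = 1.43e-06). The binding proteins Igf2bp1, Igf2bp2 and Igf2bp3 were higher (0.93 for Igf2bp1, 0.63 for Igf2bp2 and 0.55 for Igf2bp3), while Wtap (-0.065) and Alkbh5 (0.14) did not pass the test. Translation factors were mixed, 14 of 45 higher and 13 lower (19 higher and 6 lower with scaling by library size alone), with the muscle elongation factor Eef1a2 lower (-0.59) and the cap-binding Eif4e slightly higher (0.19).

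Adrenergic and cAMP genes were lower in 17 and higher in 11 of 46 (18 higher and 12 lower with scaling by library size alone), and all 5 dysregulated members were higher. The α1 receptors, on which PE acts, went apart by subtype. Adra1a had 20.0, 22.1, 18.4 and 21.8 CPM with AdGFP and 13.3, 13.2, 15.2 and 14.6 CPM with AdMETTL5 and Adra1b had 22.1, 22.6, 26.7 and 27.3 CPM with AdGFP and 16.5, 16.1, 16.7 and 14.6 CPM with AdMETTL5, both lower (-0.55 for Adra1a and -0.62 for Adra1b). Adra1d had 3.97, 3.31, 2.57 and 3.02 CPM with AdGFP and 12.1, 13.0, 14.6 and 8.97 CPM with AdMETTL5, a 3.78-fold rise (1.92 ± 0.166, adjusted p = 1.92e-06). The cyclase Adcy5 of adult heart fell (-0.86), whereas Adcy1, a calmodulin-activated form, had 0, 0.181, 0.467 and 0 CPM with AdGFP and 1.82, 1.81, 2.30 and 2.48 CPM with AdMETTL5, rising 12.4-fold. The RGS proteins, which switch G proteins off, included 4 higher and 5 lower of 15 (5 higher and 3 lower with scaling by library size alone). Rgs20 had 0.237, 0.120, 0 and 0 CPM with AdGFP and 2.29, 1.48, 1.51 and 1.72 CPM with AdMETTL5 and Rgs7 had 0, 0.722, 0 and 0 CPM with AdGFP and 2.23, 2.68, 1.97 and 1.65 CPM with AdMETTL5, so both were nearly silent with AdGFP and rose by 4.19 and 3.53 (for Rgs7, DESeq2's adjusted p was 0.0502). Rgs2, which acts on the Gq proteins of α1 receptors, rose by 0.92 (35.5 ± 5.16 CPM with AdGFP and 66.9 ± 4.26 CPM with AdMETTL5), while Rgs4 (0.032) and Rgs5 (-0.015) did not pass the test.

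Downstream of these receptors, feedback genes of the MAPK pathway were 11 lower and 7 higher of 27, none dysregulated (10 higher and 8 lower with scaling by library size alone). The ERK readouts Dusp6 (-0.02), Etv4 (0.11) and Etv5 (0.029) did not pass the test, and Spry1 fell (-0.73). Egr1, an early gene of PE and growth factors, had 132, 134, 137 and 157 CPM with AdGFP and 50.4, 55.8, 46.9 and 59.3 CPM with AdMETTL5 and fell 2.63-fold (-1.40 ± 0.0775, adjusted p = 6.18e-08). Its relatives Egr2 (-0.84) and Egr3 (-0.96) fell too. Fos did not pass (-0.018), Jun fell (-0.43), and Myc (0.80), Fosl1 (0.58) and Atf3 (0.47) rose, so that the early genes as a list were 11 higher and 6 lower of 26. In the calcineurin list 5 were higher and 5 lower of 18, close to the share of all genes (7 higher and 5 lower with scaling by library size alone).

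Secreted ligands gave some of the clearest single changes. Among growth factors and receptors 21 of 61 were higher and 18 lower, close to the share of all genes. Bdnf, a neurotrophin, had 20.4, 20.2, 15 and 14.2 CPM with AdGFP and 57.5, 49.3, 57.0 and 47.7 CPM with AdMETTL5 and rose 3.03-fold (1.60 ± 0.115, adjusted p = 4.3e-07). The related Ntf3 (1.12), the EGF receptor ligand Tgfa (1.21) and the ligand of KIT, Kitlg (2.40), rose as well, and Fgf2 rose by 0.95. Fgf16, a growth factor made by cardiomyocytes, had 16.3, 17.3, 20.1 and 21.0 CPM with AdGFP and 6.88, 6.38, 6.89 and 8.39 CPM with AdMETTL5 and fell 2.61-fold (-1.38 ± 0.110, adjusted p = 9.35e-07). Fgf18 (-1.10), the binding protein Igfbp2 (-1.51 ± 0.227, adjusted p = 0.00015), Igf2 (-0.74) and Hbegf (-0.58) fell. The neuregulin receptors of the cardiomyocyte were split between Erbb2, lower (-0.38), and Erbb4, higher (0.69).

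Of the guidance cues, which steer axons and vessels, 18 of 46 were higher and 13 lower, at a median of 0.027 (18 higher and 8 lower with scaling by library size alone). Of these members 7 were dysregulated upward and 1 downward, beside 4.05 and 1.8 percent of all genes tested. Sema3a, the repellent that patterns cardiac sympathetic nerves, had 1.36, 0.963, 1.52 and 1.80 CPM with AdGFP and 4.39, 3.83, 5.84 and 5.21 CPM with AdMETTL5 and rose 3.40-fold (1.76 ± 0.195, adjusted p = 1.39e-05). Sema3e (1.40), Sema7a (1.28), Efna2 (1.28), the receptor Epha3 (1.07), Efnb2 (1.63) and Nell2 (3.93) rose too. Efnb3 was the member that fell past this size (-1.01), with smaller falls of Ntn1 (-0.93) and of the SEMA3A receptor subunit Nrp1 (-0.69), while Nrp2 rose (0.31).

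**Figure D5:**
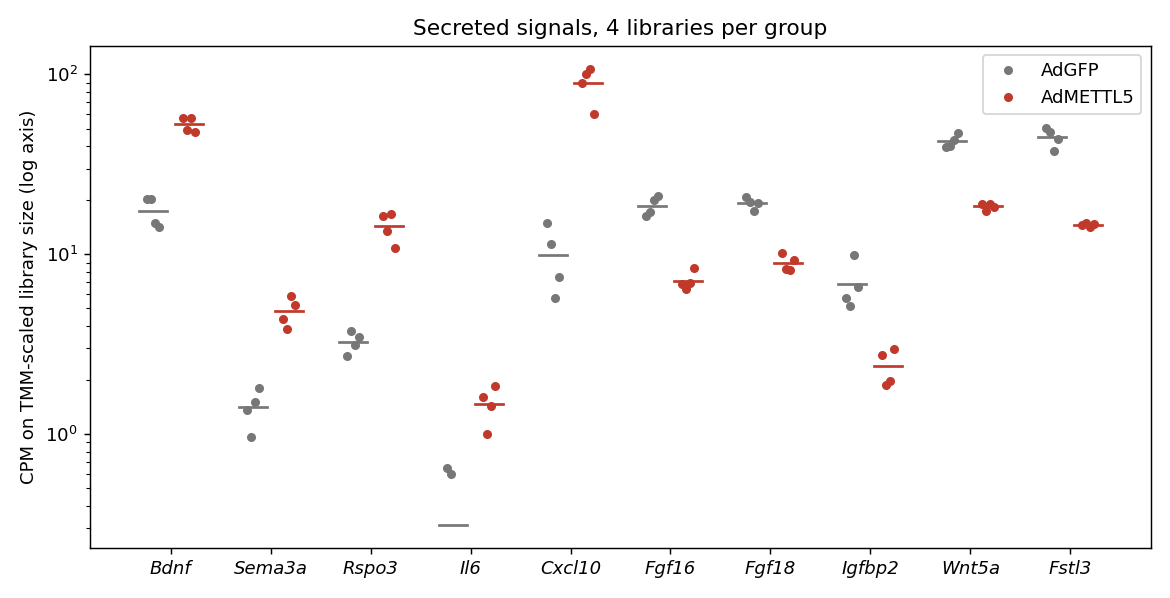
Level of 10 genes of secreted or membrane-bound signals in each library (CPM on TMM-scaled library size, log axis). Each point is a library, grey for AdGFP and red for AdMETTL5, and the short line is the group mean of 4 libraries. Bdnf, Sema3a, Rspo3, Il6 and Cxcl10 are higher with AdMETTL5, and Fgf16, Fgf18, Igfbp2, Wnt5a and Fstl3 lower, without overlap in any of the 10. Such separation was seen in 48.4 percent of all genes tested. The 2 AdGFP libraries with no count of Il6 cannot be drawn on the log axis but enter its mean.

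Wnt and Notch genes were 11 higher and 13 lower of 47, close to the share of all genes (14 higher and 10 lower with scaling by library size alone). Rspo3, a secreted enhancer of Wnt signaling, had 2.73, 3.73, 3.15 and 3.49 CPM with AdGFP and 16.3, 13.5, 16.8 and 10.8 CPM with AdMETTL5, and the Wnt-dependent factor Lef1 had 8.96, 7.64, 7.65 and 8.31 CPM with AdGFP and 19.4, 20.4, 21.5 and 17.7 CPM with AdMETTL5. These rose 4.37-fold and 2.43-fold (1.28 ± 0.0852, adjusted p = 2.31e-07 for Lef1), with Notch1 (0.51) and its target Nrarp (0.94). Wnt5a, a ligand of the non-canonical branch, had 39.6, 40.1, 43.4 and 47.0 CPM with AdGFP and 19.0, 17.5, 19.1 and 18.3 CPM with AdMETTL5 and fell 2.30-fold (-1.20 ± 0.0674, adjusted p = 6.36e-08), and the Notch target Hes1 fell (-0.38). In the TGF-beta and BMP list 15 of 50 were lower and 11 higher (17 higher and 12 lower with scaling by library size alone), the dysregulated member being Fstl3, an activin inhibitor (-1.62 ± 0.0874, adjusted p = 5.42e-08). The ligand gene Inhba rose (0.48), Tgfb3 fell (-0.43), and the response genes Smad7 (0.0087) and Id1 (-0.036) did not pass the test. Of the CCN and Hippo-YAP genes 10 were higher and 9 lower of 26, at a median of 0.064 (14 higher and 8 lower with scaling by library size alone). The YAP-responsive Ccn1 (-0.37), Ccn2 (-0.40) and Amotl2 (-0.42) were among the 9 lower ones, while 10 members went the other way. The list held 1 dysregulated member in each direction, Ankrd1 (-2.30) lower and Vgll2 higher, the latter with 0 counts in every AdGFP library.

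Interferon-stimulated genes had the largest median shift of the 68 lists, with all 56 tested members higher at a median of 2.66, and part of the cytokine genes rose beside them. Of the NF-kB and cytokine list 24 of 44 were higher and 4 lower, with 11 dysregulated upward and 1 downward, not all of them named here. Il6 had 0.652, 0.602, 0 and 0 CPM with AdGFP and 1.62, 1.01, 1.44 and 1.84 CPM with AdMETTL5 and rose 4.69-fold (2.23 ± 0.602, adjusted p = 0.00801). Nos2, the inducible nitric oxide synthase, rose by 1.72 ± 0.130, adjusted p = 6.3e-07, and the chemokines by 0.94 for Ccl2, 1.31 for Ccl7, 1.04 for Cxcl2 and 3.18 for Cxcl10, the last also an interferon target. The direct NF-kB feedback genes moved little, with 0.26 for Nfkbia and 0.29 for Tnfaip3, and Nfkb2 (0.075) and Relb (0.053) did not pass the test. Vcam1 (-0.062), Il1b (0.12) and Il33 (-0.14), also cytokine-linked, did not pass it, Ccl20 fell (-1.11) and the TWEAK receptor gene Tnfrsf12a fell (-0.66).

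Extracellular matrix genes were mostly lower. Of the collagen chains 24 of 35 were lower and 1 higher, at a median of -0.43, and their summed level was 20267 to 20950.5 CPM with AdGFP and 15717 to 17114 CPM with AdMETTL5. The fibrillar chains of scar changed modestly: Col1a1 had 8269.8, 8182, 8547 and 8671 CPM with AdGFP and 6949.7, 6610.3, 6694 and 7296 CPM with AdMETTL5 (-0.29 ± 0.0546, adjusted p = 0.000794), Col3a1 changed by -0.38 and Col5a1 by -0.58. Col8a2 (-1.19), Col6a6 (-1.46) and Col26a1 (-1.86) were dysregulated, and Col15a1 of the cardiomyocyte basement membrane fell (-0.95). The fibroblast markers given above had a median of -0.37, and Col1a1 and Col3a1 are in both lists. Collagen processing had 9 lower and 4 higher of 23 (10 higher and 6 lower with scaling by library size alone), and its core enzymes and chaperone Lox (0.13), P4ha1 (-0.11) and Serpinh1 (0.016) did not pass the test.

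Matricellular proteins and glycoproteins were lower in 24 and higher in 8 of 37. Postn, the periostin of activated fibroblasts, had 827, 845, 907 and 834 CPM with AdGFP and 571, 577, 569 and 620.1 CPM with AdMETTL5 (-0.55 ± 0.0494, adjusted p = 2.76e-06), and elastic fibre genes fell with it, -1.21 for Mfap2, -1.13 for Efemp1, -0.55 for Eln and -0.48 for Fbn1. Among the 8 higher members were the hyaluronan synthase Has3 (1.32), the hyaluronan receptor Cd44 (0.70), osteopontin Spp1 (0.78) and tenascin Tnc (0.36). Fibronectin, Fn1, did not pass the test (-0.049). Small leucine-rich proteoglycans had 7 of 9 lower, including Bgn (-0.35), while Dcn did not pass (0.06).

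At the basement membrane and its receptors single genes changed in opposite directions. Among laminins, Lamb3, a chain of an epithelial laminin, fell (-1.94), whereas chains of heart muscle such as Lama2 (-0.063) and Lamb2 (-0.06) did not pass the test. Npnt, the nephronectin that binds integrin α8, had 4.03, 5.30, 5.72 and 4.65 CPM with AdGFP and 11.9, 12.3, 11.9 and 11.6 CPM with AdMETTL5 and rose 2.42-fold (1.28 ± 0.104, adjusted p = 1.14e-06), and Fras1 rose (1.19). Of the integrins, the laminin receptor Itga6 had 122, 131, 109 and 115 CPM with AdGFP and 268, 276, 286 and 251 CPM with AdMETTL5 and rose (1.18 ± 0.0620, adjusted p = 4.22e-08), as did Itgb8, which activates latent TGF-beta (1.06). Itgb1bp2, the muscle protein melusin that links integrin to load sensing, had 127, 124, 99.7 and 103 CPM with AdGFP and 41.7, 44.1, 39.9 and 37.4 CPM with AdMETTL5 and fell 2.78-fold (-1.48 ± 0.0861, adjusted p = 8.43e-08), and Itga9 (-1.03) and the talin Tln2 of striated muscle (-0.57) fell. Proteases were mixed, with 15 lower and 12 higher of 47 (16 higher and 8 lower with scaling by library size alone). The gelatinase Mmp2 and its activator Mmp14 fell (-0.34 for Mmp2 and -0.35 for Mmp14), and Mmp12 (1.63), Mmp16 (1.38), Mmp9 (0.58) and Plaur (0.80) rose.

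Stress programs rose in part. Of the integrated stress response, which phosphorylated eIF2α sets in motion, 23 of 34 genes were higher and 3 lower. Trib3 (0.59), Chac1 (0.57) and Ddit3 (0.33) rose, Atf4 itself did not pass the test (0.12), and its target Asns fell (-0.29). The eIF2α kinase Eif2ak2, also an interferon-stimulated gene, rose 3.50-fold, whereas Eif2ak3 (0.09) and Eif2ak4 (0.0033) did not pass. Chaperones of the endoplasmic reticulum were 3 higher and 6 lower of 25 (13 higher and 0 lower with scaling by library size alone), with Hspa5 (0.10) not past the test.

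Heat shock genes divided by family. Inducible Hspa1b had 19.0, 19.1, 15.6 and 16.5 CPM with AdGFP and 48.8, 45.7, 44.3 and 41.7 CPM with AdMETTL5 and rose 2.57-fold (1.36 ± 0.0764, adjusted p = 6.37e-08), with Hsp90aa1 (0.86) and Hsph1 (0.69), while the small heat shock proteins of the sarcomere, Hspb7 (-1.08 ± 0.0630, adjusted p = 8.43e-08) and Cryab (-0.99), fell. Reads of Hspa1b can be shared with its near copy Hspa1a, which was not tested, so this value is uncertain. Among NRF2 targets 19 of 40 were higher and 6 lower. Hmox1 had 48.8, 43.1, 61.0 and 53.1 CPM with AdGFP and 99.4, 95.2, 97.5 and 107 CPM with AdMETTL5 (0.95 ± 0.0868, adjusted p = 2.95e-06), and Gclc (0.41) and Txnrd1 (0.54) rose, but the classic target Nqo1 did not pass the test (0.18).

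A few genes, some of them members of the lists, went from no count to a clear one. In 22 dysregulated genes every AdGFP library held 3 or fewer counts, 2 of them in the interferon list, and in 4 every AdMETTL5 library did. Bpifb4, a secreted lipid-binding protein, had counts of 0, 0, 0 and 0 with AdGFP and 55, 62, 61 and 58 with AdMETTL5, at least 22.0-fold higher against the floor of 3 counts per library. Alx1, a homeodomain factor of the facial mesenchyme, had 0, 0, 0 and 0 with AdGFP and 60, 49, 40 and 38 with AdMETTL5 (at least 17.5-fold higher), and Vgll2, a TEAD cofactor of skeletal muscle, had 0, 0, 0 and 0 with AdGFP and 28, 21, 27 and 13 with AdMETTL5 (at least 8.33-fold higher). Gabrb2, a GABA receptor subunit, and Eomes, a T-box factor, had at least 12.5-fold and 6.05-fold more. Col23a1, a transmembrane collagen, was the converse, with 13, 15, 11 and 12 with AdGFP and 0, 0, 0 and 0 with AdMETTL5, at least 3.81-fold lower. Estimated counts of 0 also occurred within groups: 133 genes held 0 in 1 AdGFP library and 20 or more in another, and 125 did so among the AdMETTL5 libraries. A count of 0 in a single library therefore does not show by itself that a gene is silent. In all, 17 genes held 0 in all AdGFP libraries with at least 10 in every AdMETTL5 library, and 4 the reverse. A gene without counts in a whole group passes the filter on low counts only through its level in the other group. The separation of the groups in such genes is therefore partly set by the filter, and whether they are silent was not tested.

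Of the genes chosen by the smallest adjusted p outside the lists, those higher with AdMETTL5 included Mrvi1, a protein of cGMP kinase signaling in smooth muscle, with 10.1, 9.93, 11.9 and 11.9 CPM with AdGFP and 63.5, 60.9, 72.7 and 53 CPM with AdMETTL5 (2.51 ± 0.102, adjusted p = 1.17e-08). Etfbkmt, the methyltransferase of the electron transfer flavoprotein Etfb that itself fell, rose 3.46-fold (1.79 ± 0.0723, adjusted p = 1.17e-08). Tent5a, a poly(A) polymerase, rose by 1.54, and Resf1 and Ly6e by 1.38 for Resf1 and 1.53 for Ly6e. The interferon list is not exhaustive, and whether these genes respond to interferon was not tested. Among the lower genes, Aqp1, the water channel of endothelium and cardiomyocyte membrane, had 448, 433, 417 and 408 CPM with AdGFP and 202, 208, 206 and 210.3 CPM with AdMETTL5 and fell 2.06-fold (-1.05 ± 0.0440, adjusted p = 1.23e-08). The myosin Myo5c (-3.79), chosen by its fold change, was lower at low levels, with 0 counts in all but 1 AdMETTL5 library.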

How the data were processed

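RNA sequencing of 4 AdGFP and 4 AdMETTL5 libraries of PE-treated NRVMs was used. Per the labels and the study's methods, the authors aligned reads with HISAT2 2.0.4 to the rat genome (Rnor_6.0 in the submitters' processing notes) and obtained counts with StringTie 2.1.4. StringTie derives counts per gene from coverage, so the deposited values are estimated counts; all were whole numbers and rounding changed none. They were not scaled between libraries, and the strand setting is not given in the sources used here, so genes that overlap, lie antisense or have near-identical copies are uncertain. Columns were assigned to groups by name, and the libraries are numbered in column order within a group. The closest pair of a group differed by 2.16 chi-square per degree of freedom over genes, so no library was counted as a duplicate.

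Genes were filtered with filterByExpr (at least 10 counts in the smaller group, 15 in all) and tested with edgeR 4.0.16 in R 4.3.3 by the quasi-likelihood test after TMM scaling, with Benjamini-Hochberg adjustment over all 15041 genes tested. Dysregulated genes passed an adjusted p of 0.05 and differed by over 1 in log2 fold change, in either direction. Levels are CPM on TMM-scaled library sizes, and folds against a group with no count use a floor of 3 counts per library, which covers counting error only. The fit was planned for counts and was kept for these estimated counts. Isoform ratios were tested by exact two-sided permutation. Scripts were tested on simulated data.

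The 68 gene lists, their members and the comparison itself were chosen with earlier results of these data known, and lists share members. List members without a matching symbol in the table were not analysed here, and 396 genes without a symbol, with 0.00866 percent of the counts, were named nowhere. Named genes were those marked in the lists, up to 6 dysregulated members per list and direction by adjusted p, the 12 per direction with the smallest adjusted p outside the interferon list and without overlap of the groups, the 8 per direction with the largest fold change, and the genes of the ratios. A further 28 genes were chosen after their values were seen: Tnnt3, Lmod3, Ctnna1, Dsg2, Gjc1, Jph1, Kcne1, Npr1, Klf5, Gadd45g, Pmaip1, Tfb2m, Polrmt, Dlat, Fh, Hibch, Acadsb, Bcat1, Igf2bp1, Igf2bp3, Egr2, Egr3, Sema3e, Nrp1, Cxcl2, Eif2ak3, Eif2ak4 and Eomes. Alternatives were DESeq2 1.42.0, other scalings and filters, thinning to the smallest library, and each library left out. The mouse heart tables were not used here, no coordinates or sequences are given, and some genes are not reported here.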

Additional observations from a re-analysis of the deposited data

Results flagged for a closer look

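Of 730 groups of 4 values examined (total counts, the share of the 10 largest genes, and the level of each named gene and ratio in each group), 43 held a library far from the other 3 by Dixon's ratio for 4 values. Chance flags about 1 in 20 groups, close to this share. AdMETTL5 library 4 accounted for 19 of them, and without it 965 genes were dysregulated instead of 880. AdMETTL5 library 4 was the highest of its group with 187 CPM for Myom2 (others 117 to 123), 24.8 CPM for Npr1 (others 20.1 to 20.7), 28.4 CPM for Ezh1 (others 24.2 to 24.9), 60.0 CPM for Ccnd2 (others 52.6 to 53.7) and 10.2 CPM for Orc1 (others 7.72 to 7.94). It was likewise apart with 31.1 CPM for Ppargc1a (others 28.0 to 28.2), 114 CPM for Spry1 (others 82.5 to 87.5), 2.54 CPM for Egr3 (others 1.54 to 1.62), 54.9 CPM for Erbb2 (others 41.8 to 42.8) and 620.1 CPM for Postn (others 569 to 577). It was likewise apart with 516 CPM for Lamb2 (others 474 to 479.8), 32.2 CPM for Tln2 (others 25.7 to 25.9), 47.8 CPM for Eif2ak4 (others 45.9 to 46.2), a Myh7/Myh6 ratio of 1.86 (others 1.48 to 1.51) and a Myl4/Myl3 ratio of 0.0752 (others 0.0583 to 0.0591). AdMETTL5 library 4 was the lowest of its group with 1.53 CPM for Sln (others 2.02 to 2.1), 72.3 CPM for Fen1 (others 84.5 to 87.0), 27.4 CPM for Chac1 (others 30.2 to 30.6) and 459 CPM for Atf4 (others 504 to 513). AdMETTL5 library 1 was the highest of its group with 26.4 CPM for Bud23 (others 22.8 to 23.3). AdMETTL5 library 1 was the lowest of its group with 144 CPM for Mki67 (others 159 to 160.01) and 42.5 CPM for Lamb3 (others 45.9 to 46.2). AdMETTL5 library 2 was the highest of its group with 0.336 CPM for Tnni2 (others all 0) and 0.336 CPM for Myo5c (others all 0). AdMETTL5 library 3 was the highest of its group with 76.5 CPM for Kitlg (others 66.8 to 67.8). AdMETTL5 library 3 was the lowest of its group with 67.1 CPM for Fto (others 71.9 to 72.7). AdGFP library 4 was the highest of its group with 3.31 CPM for Atp2b2 (others 2.71 to 2.79) and 72.4 CPM for Kcnq1 (others 63.0 to 63.2). AdGFP library 4 was the lowest of its group with 15.6 CPM for Egr2 (others 17.6 to 18). AdGFP library 1 was the highest of its group with 2.85 CPM for Casp8 (others 2.38 to 2.45). AdGFP library 1 was the lowest of its group with 34.6 CPM for Trdn (others 39.3 to 40.2), 8.13 CPM for Acadsb (others 13.0 to 13.4) and 1.01 CPM for Myo5c (others 1.28 to 1.34). AdGFP library 2 was the highest of its group with 0.722 CPM for Rgs7 (others all 0) and a Tnni1/Tnni3 ratio of 1.10 (others 0.984 to 1.000). AdGFP library 2 was the lowest of its group with 17.6 CPM for Klf15 (others 20.9 to 21.5), 16.5 CPM for Cdt1 (others 20.4 to 20.9), 32.7 CPM for Ccna2 (others 34.3 to 34.6), 17.3 CPM for Ttk (others 20.3 to 20.8) and 2.95 CPM for Il1b (others 4.59 to 4.86). AdGFP library 3 was the highest of its group with 32.3 CPM for Tyms (others 28.2 to 28.8). AdGFP library 3 was the lowest of its group with 444 CPM for Synpo2l (others 486 to 495) and 178 CPM for Jph2 (others 218 to 226).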

How the results depend on the processing

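The 880 dysregulated genes numbered 982 with DESeq2 (829 shared), 881 with DESeq2 size factors, 948 with scaling by library size alone (787 shared), 1026 without the filter on low counts, 625 with at least 10 counts in every library, 855 after thinning to the smallest library, and 854 to 965 with each library left out (786 to 822 shared). Without a minimum fold change they numbered 7949. Of 354 named genes, 348 kept their side of the threshold with DESeq2, 354 with its size factors, 327 with scaling by library size alone and 347 to 353 with each library left out, and none changed sign while called. Of the genes that changed side with scaling by library size alone 8 lost a call and 19 gained one, all of these higher: Dsp, Cdc45, Pold1, Cdkn1b, Tfam, Polrmt, Npm1, Ubtf, Alkbh5, Etv4, Nfkb2, Relb, Lox, Serpinh1, Dcn, Atf4, Eif2ak3, Hspa5 and Nqo1. Beside the losses given with Kcnip2, Mef2b, Mef2d, Ezh1, Cdk1, Cdc20 and Rgs7, that scaling ended the calls of Kcnip2 (adjusted p = 0.0556), Erbb2 (0.0820), Mmp2 (0.0851) and Asns (0.0628), and DESeq2 that of Mef2b (0.0509). Scaling by library size alone raised the median of all genes and turned 15 of 43 negative list medians positive, 9 that lay within the replicate spread of 0 and 6 beyond it, namely 0.0534 for calcium handling, 0.0832 for translation factors, 0.0860 for MAPK feedback, 0.0453 for collagen processing, 0.0728 for laminins and basement membrane and 0.0571 for proteases and inhibitors. The median of endothelial markers ranged from -0.0632 to 0.173 with each library left out. That of the 2 homeobox genes tested ranged from -0.594 to 0.0416 and was 2.38 without the filter, which admits more members, and no value was given with at least 10 counts in every library. The isoform ratios past the test had groups without overlap, so none of them could change direction with a library left out. No paired analysis was possible because the numbers in the control columns do not match the replicate numbers of the labels, so that no AdGFP library could be tied to an AdMETTL5 library.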
